A study of Prunus persica with 8 samples.

Results

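In peach flower buds, 154 genes kept a level transcript abundance from the start of winter chilling to 475 chilling units and stood lower at 770 chilling units. They were selected on the deposited expression values themselves, among 22285 features. A gene was taken when its highest stage reached at least 5 FPKM (sequenced fragments normalised to transcript length and to library size), when log2(FPKM + 1) ranged by less than 0.5 over the 3 earlier stages, and when it then dropped by 0.8 or more at the last step. Of 12883 annotated genes that reached 5 FPKM in any stage, 9648 were steady over the 3 earlier stages, and the 154 members are 1.6% of those steady genes. Since all 4 stage values entered the choice, the shape of these curves is a description and was not tested.

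The study followed flower buds of the nectarine cultivar Fantasia, taken from 10-year-old trees while growth was arrested in autumn and winter. RNA-Seq after removal of ribosomal RNA was done at 0, 200, 475 and 770 chilling units (0CU, 200CU, 475CU and 770CU), with 2 libraries labelled for each stage and no genetic or chemical treatment. Buds of 0CU, 475CU and 770CU were each collected on 1 day, from separate groups of several trees per replicate. No collection day was found for 200CU. Chilling increased along with collection day and bud age, so these cannot be told apart. A single value per gene and stage was deposited, and it was the mean of 2 libraries, whose separate values could be worked back for 98.4% of the features (effective sizes of 18051083 to 25374451 fragments).

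Flower buds of temperate fruit trees enter endodormancy in autumn, a state in which growth does not resume even in warm weather, and they leave it only after enough hours of cold. Chilling units count that cold. The flower organs are already laid down in the bud and keep developing slowly while it chills. By the study's methods the scales were removed from its buds before freezing, and what remains still holds several tissues. Fewer cells of one kind and less RNA per cell cannot be told apart in such samples.

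No gene name or function could be attached to the members. Their identifiers were in none of the entries of a RefSeq table of 26412 peach genes (0 of 154 matched), so the genes are described by identifier, level, curve and place, and the tissue label could not be checked against marker genes. In an identifier such as PRUPE_5G089900 the digit before the G gives the chromosome by the usual peach convention, and the number after it gives the order of the genes along it.

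The members were middling to abundant transcripts. Their median level was 22.1 FPKM at 0CU, 23.4 FPKM at 200CU, 20.9 FPKM at 475CU and 9.51 FPKM at 770CU, while the median of all genes that reached 5 FPKM lay between 14.3 and 14.6 FPKM at every stage. At 475CU the members spanned 4.53 to 1600 FPKM, and 17 of them stood at 100 FPKM or more. The ratio of 770CU to 475CU had a median of 0.46 and ran between 0.0211 and 0.57. On the log2(FPKM + 1) scale the last step had a median of -1.03 and a largest fall of -3.91, with 85 members at -1 or lower, 23 at -1.5 or lower and 5 at -2 or lower. By the ratio, with its median of 0.46, most falls were partial. At 770CU 41 members stood below 5 FPKM and 5 below 1 FPKM, and 4 had been below 5 FPKM at 475CU already.

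**Figure D1:**
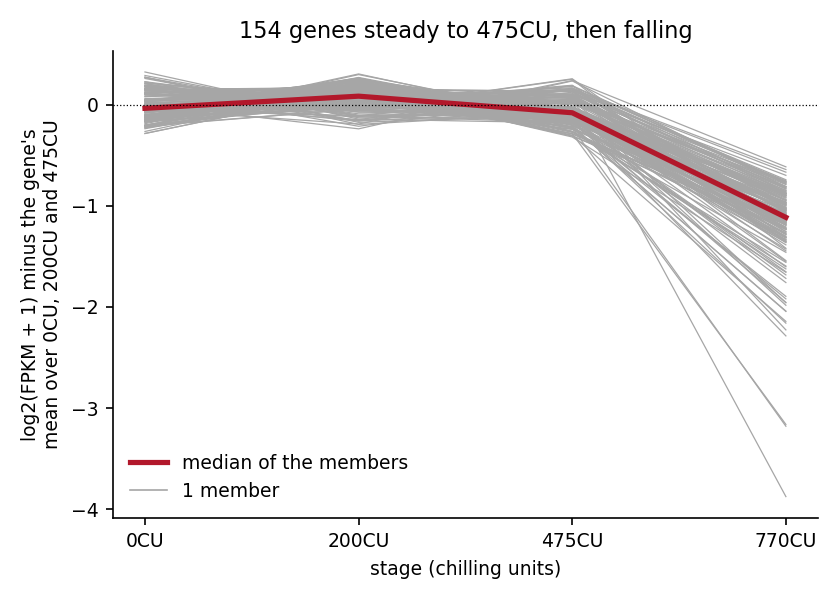
Each grey line is 1 of the 154 members over the stages 0CU, 200CU, 475CU and 770CU, as log2(FPKM + 1) minus the gene's own mean over the first 3 stages. The thick red line is the median of the members, whose last step had a median of -1.03. The lines stay within the limit of 0.5 up to 475CU and spread out only at 770CU, where the lowest line is PRUPE_5G089900.

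Before the fall the members were not flat in the same way as other steady genes, within the band of 0.5 that the rule allowed. The highest of the 3 earlier stages was 200CU in 81 members (52.6%), against 2667 of the other steady genes (28.1%). The lowest was 475CU in 80 members (51.9%), against 3069 of the other steady genes (32.3%). From 200CU to 475CU the median difference was -0.145 in the members and 0.005 in the other steady genes, and 111 members were lower at 475CU (72.1%), against 48.8% of the others. All these values entered the choice of the members, so the shares are a description. In all 154 members 770CU lay below the lowest of the 3 earlier stages, at most at 0.71 of it.

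Such a late fall was uncommon, and a late rise was rarer. Of the 9648 steady genes, 93.7% moved by less than 0.5 at the last step, 154 fell by 0.8 or more (1.6%) and 62 rose by 0.8 or more (0.643%). Over all genes that reached 5 FPKM the counts were 484 falls (3.76%) and 171 rises (1.33%), so the members made up 31.8% of the late falls. The other 330 late-falling genes had a median last step of -1.16 and a median of 19.6 FPKM at 475CU. They had moved earlier in either direction: 475CU lay below 0CU in 170 of them and above it in 160, and 66 fell at every step.

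The balance of falls and rises depended on the scaling. The summed FPKM of the table was 598455 at 770CU and 709837 at 475CU, a difference that arose mostly in features other than annotated genes. Bringing every stage to the same total over all features shifted the median last step of all genes that reached 5 FPKM to 0.22, against -0.01 as deposited. Under that scaling the rule found 52 steady genes that fell and 162 that rose, and the median step of the 154 members was -0.79. All 154 genes shifted with the bulk of the genes under this scaling, and fewer of them passed the fixed limit of 0.8.

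**Figure D2:**
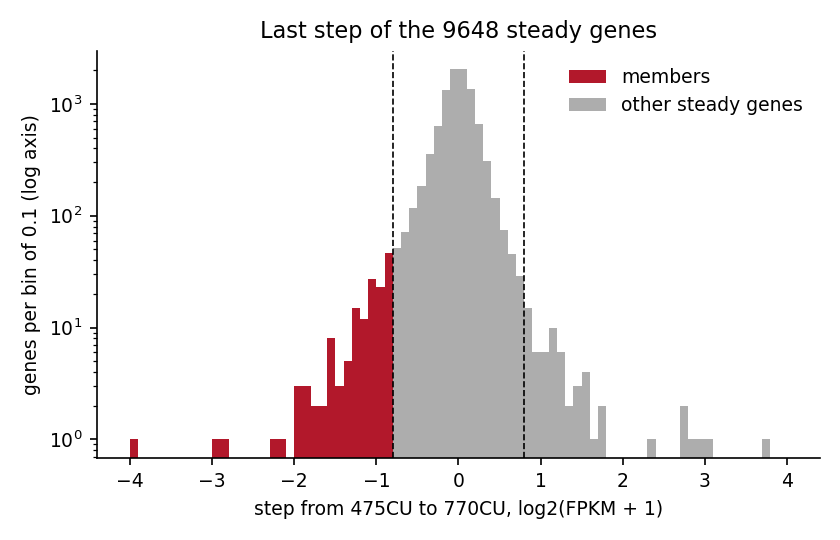
The plot counts the 9648 steady genes by their step from 475CU to 770CU in log2(FPKM + 1), in bins of 0.1 on a log axis, with the 154 members in red, the other steady genes in grey and dashed lines at -0.8 and 0.8. The members form the left tail of one continuous distribution, and the 62 steady genes that rose form a thinner right tail.

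Genes on either side of the limits differed little. Just inside the limit of the fall were PRUPE_I004400 with a step of -0.8011, PRUPE_5G166200 with -0.8018 and PRUPE_2G326600 with -0.8029. Just outside it were PRUPE_7G200100 with -0.7963, PRUPE_1G459100 with -0.7902 and PRUPE_8G189800 with -0.7883. On the limit of the range, PRUPE_1G261100 (0.4988), PRUPE_4G224500 (0.4980) and PRUPE_4G193800 (0.4977) were members, and PRUPE_3G135800 (0.5029), PRUPE_1G345200 (0.5030) and PRUPE_2G033700 (0.5054) were not.

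The separate libraries were available for 144 of the 154 members, the other 10 being abundant transcripts of 93.2 to 1600 FPKM at 475CU. In each stage the libraries are called larger and smaller by their number of fragments, and which of them carries which replicate number in the labels is not known. In all 144 members both 770CU libraries lay below both 475CU libraries, where 30.9% of all 18286 features tested did so. The smallest gap between the nearest libraries of the 2 stages was 0.326 on the log2(FPKM + 1) scale, in PRUPE_4G279600, and the median gap was 0.87. In 143 members both 770CU libraries were also below all 6 earlier ones, against 1536 of the other steady genes (16.6%). With limma, fitted to all libraries, 136 members had an adjusted p under 0.05 for a lower level at 770CU, where 6.45% of the features did. The choice of the members used this same contrast, so nothing is read from these counts.

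The largest fall belonged to PRUPE_5G089900. Its libraries read 19.97 and 23.7 FPKM at 0CU, 23.7 and 12.2 FPKM at 200CU, 15.6 and 25.6 FPKM at 475CU, then 0.464 and 0.405 FPKM at 770CU, larger library first. The last of these rest on 8 and 6 fragments, against 237 and 356 fragments at 475CU. All 6 earlier libraries were high and both late ones were near the bottom, a step of -3.91 with an SD between libraries of 0.41 (pooled over the 4 stages, 2 libraries each).

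PRUPE_5G090600, which lies close by on chromosome 5, was among the tightest of the strong falls. It had 16.0 and 13.9 FPKM at 0CU, 13.4 and 14.7 FPKM at 200CU, 9.94 and 11.1 FPKM at 475CU, then 0.524 and 0.610 FPKM at 770CU. Its step was -2.88 with an SD of 0.10, and the libraries of a stage lay close together. The 770CU values rest on 7 and 7 fragments, and at such low levels log2(FPKM + 1) differs little between libraries.

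PRUPE_7G094000, with a step of -2.96, was among the most variable. Its libraries read 14.5 and 16.5 FPKM at 0CU, 12.1 and 16.4 FPKM at 200CU, 18.9 and 4.16 FPKM at 475CU, then 0.868 and 0.361 FPKM at 770CU. The larger 475CU library was thus above every earlier library, and the smaller one was already below all of them, 4.55-fold under its partner. PRUPE_7G194400 behaved in the same way: 5.76 and 8.77 FPKM at 0CU, 5.77 and 9.57 FPKM at 200CU, 11.6 and 3.95 FPKM at 475CU, then 0.914 and 0.741 FPKM at 770CU. Its stage values of 7.27, 7.67 and 7.75 FPKM over the first 3 stages made it one of the 5 steadiest members, although its 475CU libraries differed 2.93-fold. PRUPE_1G030500 (0.942 and 0.529 FPKM at 770CU, 8.32 and 1.99 FPKM at 475CU) and PRUPE_1G260400 (3.84 and 2.03 FPKM at 770CU, 19.8 and 8.26 FPKM at 475CU) shared the wide gap at 475CU. These 4 are the members with the largest differences between the 475CU libraries in that direction, and for them the level at 475CU rests on a mean of a high and a low library.

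In the remaining strong falls the 475CU libraries lay closer together. PRUPE_3G243500 had 4.49 and 3.22 FPKM at 770CU, against 21.0 and 20.9 FPKM at 475CU, a step of -2.18. Its libraries were wider apart at 0CU, with 17.65 and 28.92 FPKM, and its SD of 0.31 was above the members' median of 0.18. PRUPE_4G036800 stood at 53.4, 63.3 and 58 FPKM over the first 3 stages and at 14.2 FPKM at 770CU, a step of -1.96. PRUPE_4G194300 and PRUPE_4G193800, close in number on chromosome 4, both fell steeply, with ratios of 770CU to 475CU of 0.233 and 0.240. In neither gene did the libraries of any stage differ by much, with SDs of 0.17 and 0.08.

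**Figure D3:**
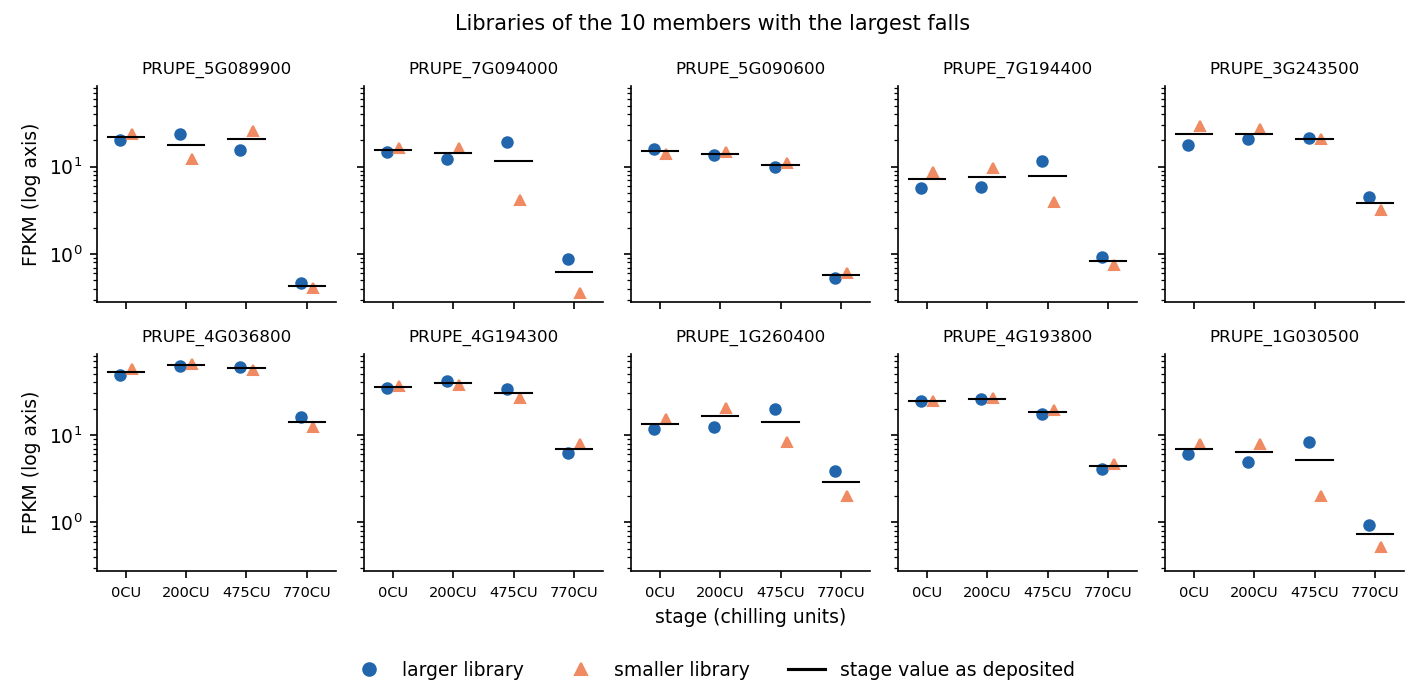
The 10 panels show the members with the largest falls, with FPKM on a log axis over 0CU, 200CU, 475CU and 770CU. Circles are the larger and triangles the smaller library of a stage, and the black bar is the deposited stage value. The 770CU libraries are the lowest in all 10 panels, and the 475CU libraries of PRUPE_7G094000, PRUPE_7G194400, PRUPE_1G260400 and PRUPE_1G030500 stand far apart.

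The most abundant members fell by about as much as the typical one. PRUPE_4G225500 stood at 1930, 1867 and 1600 FPKM over the first 3 stages and at 875 FPKM at 770CU. PRUPE_4G021100 had 390, 433 and 379 FPKM and then 179 FPKM. PRUPE_8G263100 had 340, 345 and 361 FPKM and then 198 FPKM, and PRUPE_1G099000 had 320, 406 and 344 FPKM and then 145 FPKM. PRUPE_1G107000 had 360, 312 and 299 FPKM and then 144 FPKM. Of these 5, libraries could be separated only for PRUPE_8G263100, whose 770CU libraries of 205 and 191 FPKM lay below its 475CU libraries of 403 and 319 FPKM.

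The steadiest members before the fall were PRUPE_1G265500, PRUPE_1G507500, PRUPE_6G068800, PRUPE_2G182100 and PRUPE_7G194400. PRUPE_1G265500 read 23, 23.4 and 23.5 FPKM over the first 3 stages, a range of 0.0275, and 12.5 FPKM at 770CU. Its libraries, however, spread from 19.7 to 26.4 FPKM at 0CU alone. PRUPE_2G182100 had 9.94 and 10.0 FPKM at 0CU, 11.2 and 8.667 FPKM at 200CU, 8.997 and 9.88 FPKM at 475CU, then 4.95 and 4.78 FPKM at 770CU. PRUPE_6G068800 had stage means of 27.4, 27.3 and 28.7 FPKM, while its 475CU libraries read 23.9 and 33.5 FPKM. Steadiness of the stage means was thus not always steadiness of the libraries.

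The difference between the 2 libraries of a stage did not enter the rule directly, and in it the members had a wider spread than other steady genes. The rule used means of the same 2 libraries, so this spread is not independent of the choice. The SD over genes of the larger minus the smaller library, in log2(FPKM + 1), was 0.29, 0.34, 0.38 and 0.23 over the 4 stages, from 0CU to 770CU, in the 144 members. In the 9278 other steady genes it was 0.21, 0.20, 0.15 and 0.15 over the same stages. The wider spread was not particular to the members, since the SD was 0.44, 0.47, 0.42 and 0.32 in the other late-falling genes and 0.33, 0.32, 0.21 and 0.26 in the steady genes that rose. At 475CU the libraries were apart by over 0.5 in 19 members (13.2%), against 55 of the other steady genes (0.593%). The median fragment number per library at 475CU was 926 in the members and 760 in the other steady genes. At 770CU it was 423 in the members and 839 in the others, and there 6.94% of the members and 0.356% of the others were apart by over 0.5.

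The members also leaned to one side between the libraries of a stage. The larger library was the higher one in 33 of 144 members at 0CU (22.9%), in 54 at 200CU (37.5%), in 91 at 475CU (63.2%) and in 112 at 770CU (77.8%). Among the other steady genes these shares stayed between 46.8% and 52.3%. The median difference in the members was -0.21, -0.09, 0.09 and 0.11 over the 4 stages in turn. Late-falling genes that had not been steady leaned the same way, with the larger library higher in 29.2%, 40.3%, 67.6% and 74.2% of them over the 4 stages in turn. The 60 steady genes with separate libraries that rose at the last step did not, their shares lying between 50% and 58.3%. With 2 libraries a stage there is 1 such difference per stage, so no test over samples was possible, and genes measured in the same libraries are not independent of each other.

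All 4 signs of this pattern occurred in the same gene in 34 members (23.6%), 6 of them among the 10 largest falls, and in 431 of the other steady genes (4.65%) and 88 of the other late-falling genes (27.7%). This combination was singled out after the values were seen. Larger and smaller are only names within a stage, so the libraries so called at different stages share no source that the labels give.

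At 475CU the smaller library was the one nearer to the late state. Its median position was 12.8% of the way from the mean of 0CU and 200CU to the 770CU mean, on the log2(FPKM + 1) scale, and that of the larger library was 3.52%. It lay below all 4 libraries of 0CU and 200CU in 52 of the 144 members (36.1%), against 19.1% of the other steady genes. The larger library did so in 32 members (22.2%), against 20.5% of the other steady genes, so that its share was close to theirs. Only 3 members had their smaller 475CU library nearer to 770CU than to the earlier stages, and none had their larger one there (0). Whether the samples of 475CU differed in bud development or in handling was not tested.

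**Figure D4:**
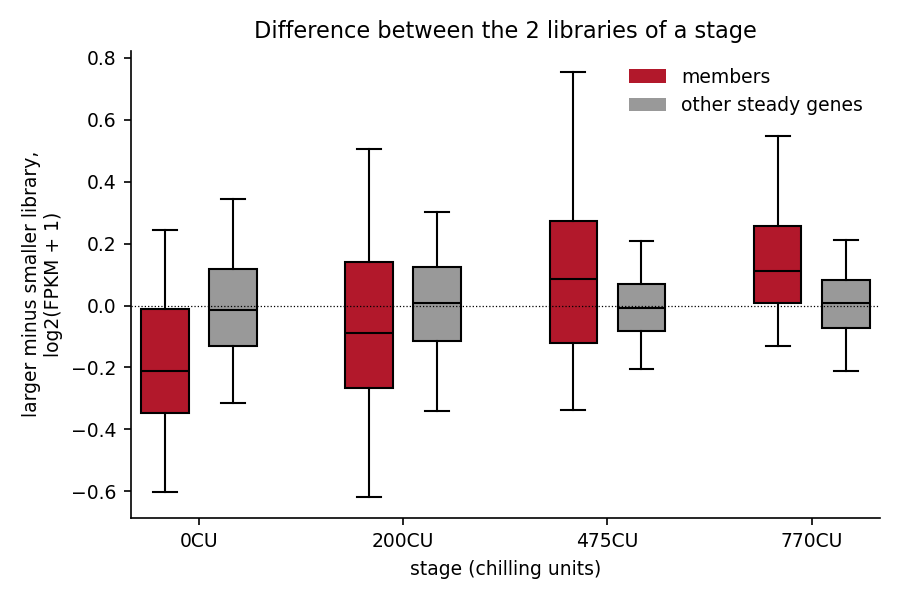
Boxes give the difference between the 2 libraries of a stage, larger minus smaller in log2(FPKM + 1), for the members (red, 144 genes) and the other steady genes (grey, 9278 genes). The line is the median, the box runs from the lower to the upper quartile and the whiskers run from the 5th to the 95th percentile. The red boxes are wider at every stage, with medians of -0.21, -0.09, 0.09 and 0.11 in the order of the stages, while the grey medians stay near 0.

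The rule was also applied to single libraries, over the features whose libraries could be separated. Taking the larger library of each stage alone gave 141 genes, 84 of them among the 144 members, and the smaller library of each stage alone gave 125 genes, 80 of them members. Leaving out 1 library at a time gave 117 to 171 genes. The lowest number came without the larger 475CU library, when 93 of the 144 members were kept, and the highest without the smaller 475CU library, when 120 were kept. The median step of the same 144 members lay between -0.98 and -1.10 with a library of 475CU or 770CU left out. These members were chosen on this step, so a large median fall was fixed in advance. The number of genes thus stayed between 117 and 171, while a good part of the individual genes changed.

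The members were spread over all chromosomes. By the digit in the identifier, 37 were on chromosome 1, 25 on 2, 10 on 3, 19 on 4, 14 on 5, 13 on 6, 14 on 7 and 18 on 8. As a share of the genes that reached 5 FPKM, this ran between 0.678% on chromosome 3 and 1.64% on chromosome 2, against 1.2% over all. Another 4 members carried identifiers with the letter I in place of a chromosome, among only 20 genes of that kind that reached 5 FPKM. These were PRUPE_I001000 (7.1 FPKM at 475CU by stage mean, step -1.48), PRUPE_I005500 (step -1.29), PRUPE_I000800 (step -0.88) and PRUPE_I004400.

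Some members lay near each other. Of the 154, 28 had another member among the 5 nearest identifiers on either side (18.2%), while 858 of the 12729 other genes that reached 5 FPKM had a member that near (6.74%). Those 858 neighbours hardly moved as a whole, with a median last step of -0.033 against -0.008 for all non-members, and 3.73% of them fell by 0.8 or more against 2.59%. Runs of members with directly following identifiers were short, 6 pairs with no run longer than 2. Neighbours were taken in the order of the deposited identifiers, where some gene numbers are absent, as between PRUPE_2G235400 and PRUPE_2G235800. In PRUPE_8G023400 and PRUPE_8G023500, the pair with the steepest fall, the 770CU libraries read 8.29 and 6.05 FPKM and 9.75 and 8.36 FPKM, against 26.8 and 23.2 FPKM and 28.5 and 30.03 FPKM at 475CU. Another member, PRUPE_8G024500, followed within 13 identifiers, and the 5 other genes between them that reached 5 FPKM had steps of -0.58 to 0.25.

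The other pairs fell less. PRUPE_4G073900 and PRUPE_4G074000 had steps of -1.12 and -0.83, PRUPE_2G129000 and PRUPE_2G129100 had -1.13 and -0.92, and PRUPE_3G108600 and PRUPE_3G108700 had -0.90 and -0.92. PRUPE_2G235400 and PRUPE_2G235800 had -1.01 and -1.07, and PRUPE_2G306200 and PRUPE_2G306300 had -0.94 and -0.82. The levels within a pair could differ widely, as in PRUPE_2G235400 with 207 FPKM and PRUPE_2G235800 with 15.8 FPKM at 475CU. Neighbouring transcripts can share reads where they overlap or are near-identical copies, and this was not tested.

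The densest group was a block of 10 consecutive genes on chromosome 5, PRUPE_5G089900 to PRUPE_5G090800, which holds 3 members and was picked out after its values were seen. All 10 genes were lower at 770CU than at 475CU, with steps of -3.91 to -1.24, and none exceeded 2.12 FPKM at 770CU. The block was picked out by its falls, so counts set against its surroundings are a description. In 9 of the 10 both 770CU libraries were below all 6 earlier ones. This held in 6 of the 24 genes around the block and in 16.6% of the other steady genes. The exception within the block was PRUPE_5G090000, whose libraries read 2.0 and 2.9 FPKM at 0CU, 8.0 and 2.9 FPKM at 200CU, 20.3 and 32.2 FPKM at 475CU, then 2.0 and 2.3 FPKM at 770CU. It was alone in the block in rising so steeply before the fall.

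The third member of the block, PRUPE_5G090800, had 1.74 and 1.77 FPKM at 770CU, against 6.41 and 5.48 FPKM at 475CU. Of the 7 non-members, PRUPE_5G090200 stood at 11.5, 14.2 and 7.18 FPKM and then at 0.297 FPKM. PRUPE_5G090300 fell at every step, with 10.6, 8.26 and 4.65 FPKM and then 0.16 FPKM. PRUPE_5G090500 had 5.1, 8.01 and 4.64 FPKM and then 0.38 FPKM. These genes missed the limit of 0.5 on the range over the earlier stages, and PRUPE_5G090100, PRUPE_5G090400 and PRUPE_5G090700 missed the minimum of 5 FPKM. The 770CU values rest on few reads, from 0 to 57 fragments in a library.

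Outside the block such falls were few. Of the 12 identifiers on either side, 2 of 24 fell by 0.8 or more, namely PRUPE_5G089800 directly before the block (step -1.26) and the member PRUPE_5G092700 at the far end (step -1.19), and the other steps reached up to 0.37. The genes of the block were also short, with a median fitted length of 626 bases (537 to 1170), against 2678 bases (1152 to 5768) in the flanks. Whether these genes are copies of each other that share reads was not tested, as neither their sequence nor their function was at hand.

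**Figure D5:**
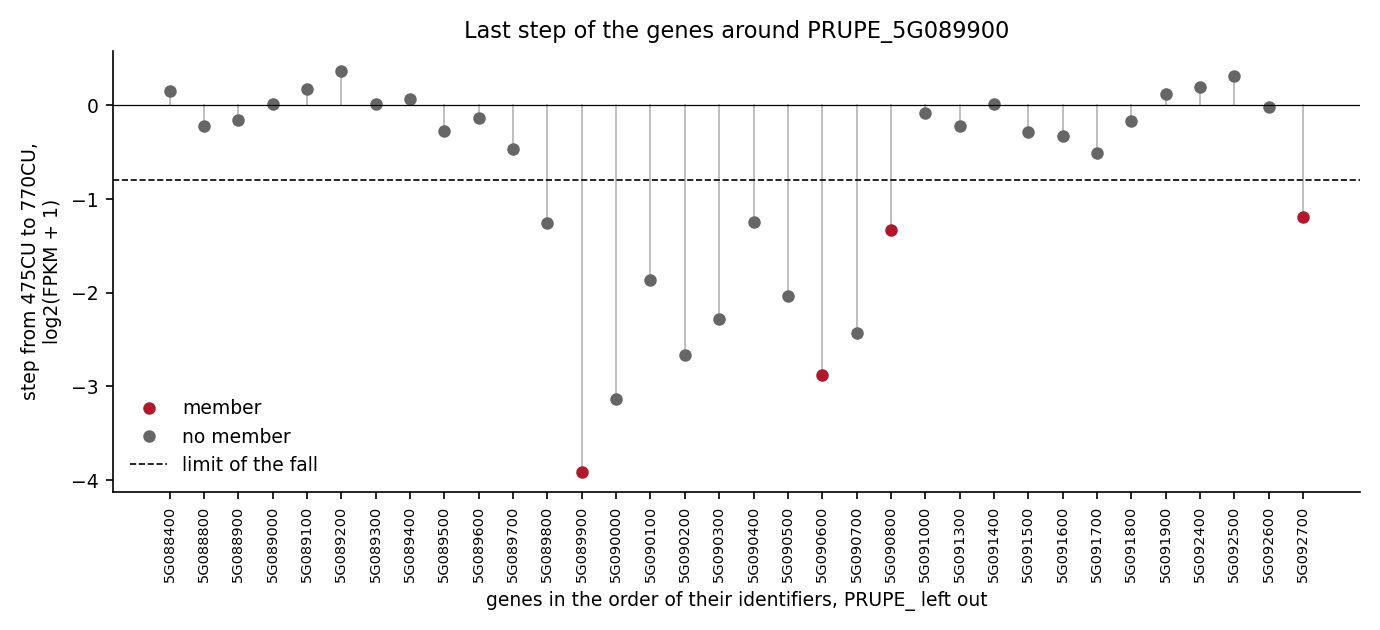
Each point is the step from 475CU to 770CU, in log2(FPKM + 1), of 1 gene, in the order of the identifiers along chromosome 5, with members in red, other genes in grey and the limit of -0.8 dashed. The 10 genes from PRUPE_5G089900 to PRUPE_5G090800 all lie between -3.91 and -1.24, while of the 24 genes around them all but PRUPE_5G089800 and PRUPE_5G092700 lie above the limit.

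In length the members as a whole resembled other steady genes, with a median of 2114 bases (quartiles 1377 and 3337) against 2461 bases (quartiles 1653 and 3578). Lengths were those at which the FPKM values correspond to whole fragments. Of the identifiers, 2 joined a pair of gene numbers, PRUPE_1G196100_1G196200 and PRUPE_6G322500_6G322600. What such joining stands for is not given in the sources used here, nor is the suffix of the member PRUPE_7G079700_X. Outside the annotated genes, 3 of 256 assembled XLOC features and 4 of 268 annotated non-coding RNA features that reached 5 FPKM followed the same curve and are not counted as members.

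None of 8 genes looked up among those the study names, its qPCR reference UBQ included, was a member (0). The steps from 475CU to 770CU of these genes ran from -0.15 in PRUPE_6G011600 (CMT3-like, a DNA methyltransferase homologue) to 0.51 in PRUPE_6G159200 (FLESHY). FLESHY, which the study examined in fruit, was barely detected in these buds, with 0.348 FPKM at 475CU and 0.921 FPKM at 770CU. PRUPE_2G042400 (ATXR7-like), PRUPE_8G216300 (SUVR2-like) and PRUPE_6G322900 (JMJ24-like), which belong to families of histone-modifying enzymes, were steady over the 3 earlier stages and stayed so at the last step, with 0.06, -0.07 and -0.03.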

How the data were processed

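Flower buds were sampled at 4 stages with 2 labelled libraries each. Per the submitters' processing notes, reads (150 nt, paired) were trimmed with Trimmomatic 0.39, aligned with HISAT2 and counted with featureCounts. The authors deposited 1 table of FPKM with 1 value per feature and stage. The genome build used for the RNA-Seq is not given in the sources used here.

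Members were chosen on log2(FPKM + 1) (pseudocount 1). The members and lists were chosen with earlier results of these data known. A stage value is the mean of 2 libraries, so effective library sizes were derived from low values, and each feature was solved for the length, from 30 to 20000 bases, at which all 8 libraries hold whole fragments. This gave 21928 of 22285 features, within a relative difference of 5.0e-10 above 1 FPKM. The recovery was tested on simulated data. Fragment numbers recovered in this way cover counting error only. Recovered libraries carry no replicate number. The study's methods describe bud replicates as separate groups of several plants for 0CU, 475CU and 770CU and do not mention 200CU.

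limma 3.58.1 in R 4.3.3 was fitted to log2(FPKM + 1) over the 4 stages with an intensity trend, on features with at least 1 FPKM in 2 libraries, with Benjamini-Hochberg adjustment. The fit was tested on data simulated with the same dispersion of 0.02 for every feature. There 81.2% of changes of 1 (log2) and 100% of changes of 2 were called. Of the calls, 7.46% were false, above the limit of 0.05 on the adjusted p. Other steps used Python 3.11.15 with pandas 2.3.3, numpy 2.4.6 and numba 0.67.0. Genes numbered 1G531100 to 1G531700 are not reported here. No p is given for single members.

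Named members were the 10 largest falls, the 5 highest at 475CU, the 5 smallest ranges, the 3 nearest to each limit with the 3 nearest non-members, and members with directly following identifiers. The block on chromosome 5 and the members widest between libraries were added after their values were seen. Alternatives were other scalings, pseudocounts, minimums and limits, and leaving out libraries.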

Additional observations from a re-analysis of the deposited data

How the results depend on the processing

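The number of members was most sensitive to scaling and to the limit of the fall. It was 154 as deposited, 52 with the same total over all features (44 of them members), 98 with the same total over annotated genes and 85 with a fall of at least 1. With median-ratio scaling, quantile normalization, a pseudocount of 0.1, a minimum of 10 FPKM or none, or a range limit of 0.4 or 0.6 it stayed between 114 and 193, and with a fall of 0.7 it was 205. Steady genes that rose numbered 62, and 162 with the same total over all features. The members' median step ran from -0.79 (same total over all features) to -1.11 (pseudocount 0.1). Leaving out a single library gave 117 to 171 genes against 144 where libraries were recovered, and a median step of -0.98 to -1.10. limma called 132 to 140 members lower, with 136 in the fit described. The members were chosen on the last step itself, so high counts were close to fixed in advance. The 140 came from a fit to the libraries of the last 2 stages alone, which called 1591 of 17669 features lower. The 132 came from a fit with no filter on low values, which called 1104 of 21928 features lower. In the fit described limma called 1179 features lower and 833 higher. With the same total over all features it called 792 lower and 5024 higher. Of 180 values for 36 named members under 5 alternatives none changed sign, 140 moved by less than the SD between libraries and 40 by more. These members were chosen with a step of -0.8 or lower, so the unchanged sign was close to fixed in advance. Some of them, such as PRUPE_4G225500, had no separate libraries and so no SD of their own. No paired analysis was possible because the stage columns and the recovered libraries lack replicate numbers. The single-library runs were added after seeing the data. With 2 libraries a stage, depth limits mostly the 770CU values of members at a few fragments.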
